A study of Mus musculus with 52 samples.

Results

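The comparison described here sets male mice with the Q111 allele of huntingtin against male mice with the Q20 allele, in the white fat around the gonad, which in males is the epididymal pad. Its members are 8 of the 52 libraries of the study, 4 of each group, chosen by the genotype and sex in their labels, and every microRNA precursor counted in them was considered. The Q111 males carried 1 knock-in allele with 111 CAG repeat units and were housed with other Q111 mice. The Q20 males carried 1 knock-in allele with 20 units and were housed with wild-type and Q20 mice. All 8 libraries came from heterozygous mice of the C57BL/6 strain aged 6 months, so the Q20 mice are knock-in controls and not wild type. The rest of the study holds females of both genotypes, wild-type mice and Q80, Q92, Q140 and Q175 mice. Genotype and housing cannot be told apart in this comparison.

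Huntington's disease is caused by an expanded CAG repeat in the huntingtin gene, and in knock-in mice the repeat sits in the mouse's own gene, so the mutant protein is made in fat as well as in brain. A microRNA is cut from a hairpin precursor and, loaded into an Argonaute protein, pairs through its seed with messenger RNAs and represses them. In adipose tissue microRNAs are known to take part in the making of fat cells, in insulin response and in inflammation. The small RNA reads of a piece of fat come from fat cells, vessels, immune cells and stroma alike, and in a bulk sample fewer cells of a type and less RNA per cell cannot be told apart. The files name each precursor by its miRBase accession alone and do not pair accessions with microRNA names, so precursors are called by accession here, no sequence is printed and no role is given to any of them. For the same reason the fat label could not be checked against tissue markers.

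Total estimated counts ran from 2403830 to 3167113 in the Q111 libraries and from 2896498 to 4761640 in the Q20 libraries, and between 496 and 542 precursors had a count. The means, 2773970 ± 349254 in Q111 and 3614389 ± 836125 in Q20 (SD), did not pass a 2-sided exact permutation test (p = 0.143, adjusted p = 0.571 over 4 library measures, n = 4 each; the smallest p this design allows is 0.0286). The 5 most abundant precursors took 55.8% to 57.9% of the counts in the 4 Q111 libraries and in 3 of the Q20 libraries, but 73.3% in Q20 replicate 2. All Q111 libraries were run in lane 1, as were Q20 replicates 1 and 2, while Q20 replicates 3 and 4 were run in lane 3. The targeted gene itself is a messenger RNA and is not measured in these libraries.

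MI0000257, whose precursor is 63 nucleotides long, set Q20 replicate 2 apart from every other library. It stood at 62910.4, 91228, 105804 and 81862 CPM (estimated counts scaled to a common library size with TMM factors) in Q111 replicates 1 to 4, against 114979, 662242, 122635 and 101862 CPM in Q20 replicates 1 to 4. The groups overlapped, and 1 Q20 library lay far above all 7 others. MI0000257 took 7.34% to 10.8% of the counts in Q111 libraries, and 42.3% in Q20 replicate 2 against 9.85% to 12.2% in the other Q20 libraries. Its log2 fold change, Q111 over Q20, was -1.55 (SE 0.70, 95% interval -3.21 to 0.11, edgeR adjusted p = 0.731), and -0.35 without Q20 replicate 2 (adjusted p = 0.428).

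MI0000221, a precursor of 68 nucleotides, took the largest share of the counts in every library but Q20 replicate 2, at 17.4% to 24.6% in Q111 and 13.1% to 22.5% in Q20. It measured 211006, 149970.1, 201015 and 165521 CPM in Q111 replicates 1 to 4, and 164215, 204904, 197735 and 232305 CPM in Q20 replicates 1 to 4. The ranges overlapped over most of their length. The log2 fold change was -0.14 (SE 0.16, adjusted p = 0.886), with a 95% interval of -0.50 to 0.22. It turned to 0.19 on RPKM, where the median of all precursors moved to 0.34, and to 0.02 within lane 1. Per length, on the authors' RPKM scale, MI0000221 averaged 2994835 ± 456562 RPKM in Q111 and 2649079 ± 589380.0 RPKM in Q20 (SD, n = 4 each). On that scale MI0000257 averaged 1511374 ± 252827 RPKM in Q111 and 3020290.2 ± 2464485 RPKM in Q20. The estimated counts of MI0000221 were whole in 50% of the 8 libraries, so reads shared with another precursor may be part of them.

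The 8 libraries did not part by genotype. Principal component 1 of log2 CPM held 60.9% of the variance. Its scores were 10.3, -3.07, -5.88 and -0.64 in Q111 replicates 1 to 4, against -4.27, 17.6, -7.43 and -6.63 in Q20 replicates 1 to 4. The means, 0.185 ± 7.10 in Q111 and -0.185 ± 11.9 in Q20 (SD, n = 4 each), differed by less than the spread within either group (exact permutation p = 0.943, adjusted p = 0.943). Component 2, with 17.3% of the variance, set the high libraries apart from each other, at -9.76 in Q111 replicate 1 and 7.25 in Q20 replicate 2.

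**Figure D1:**
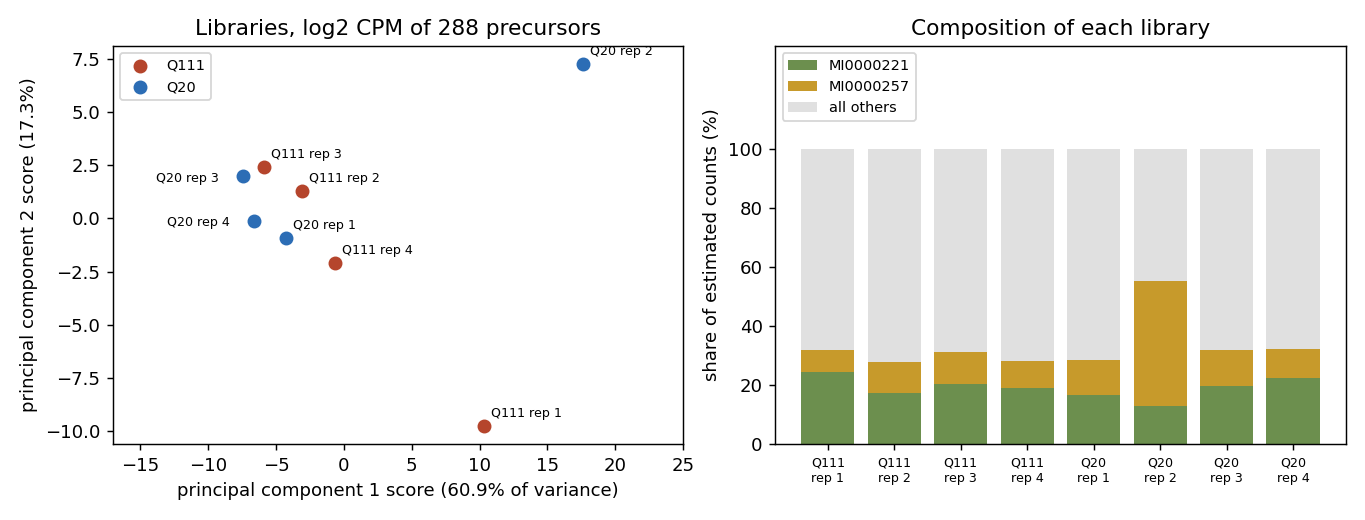
Left, scores of the 4 Q111 and 4 Q20 male libraries on principal components 1 and 2 of log2 CPM over 288 precursors, 1 point per library. Right, the share of each library's estimated counts (%) taken by MI0000221, MI0000257 and all other precursors. Q20 replicate 2 and Q111 replicate 1 lie away from the other 6 libraries, and MI0000257 takes 42.3% of Q20 replicate 2.

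Some precursors stood high in both of these libraries, Q111 replicate 1 and Q20 replicate 2, which were picked out after their scores were seen. In Q111 replicate 1, 16 of 288 precursors lay more than 2-fold above the highest of the other 6 libraries, in Q20 replicate 2 also 16 did, and 7 did so in both. The 7 shared precursors summed to 2987, 219, 166 and 384 CPM in Q111 replicates 1 to 4, against 139, 14795, 127 and 120.02 CPM in Q20 replicates 1 to 4. The way these 7 were chosen fixes that these libraries are the highest, and the sums give only the size. What these libraries hold could not be matched to cell type markers, and its part in the differences below was not tested, so results are given with and without them.

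No precursor passed the test between Q111 and Q20 males. Of 1187 precursors, 790 had a count in the 8 libraries and 288 had at least 10 counts in at least 4 of them. Of these 288, 0 reached an adjusted p under 0.05 (0%; edgeR quasi-likelihood test, Benjamini-Hochberg over all 288), and the lowest adjusted p was 0.158. At an unadjusted p under 0.05 there were 17 precursors (5.90%). They were 6 higher (2.08%) and 11 lower (3.82%) in Q111, with log2 fold changes of 0.39 to 1.052 and of -2.48 to -0.46. DESeq2 gave 1 call on the same counts and limma on log2(RPKM + 1) gave 0, with 18 and 30 precursors below that p before adjustment. The split was 8 higher and 9 lower when only the scaling was changed, to DESeq2's size factors in edgeR. It was 28 higher and 2 lower in limma on RPKM, which changed the scaling and the test together and where the median log2 fold change of all precursors moved to 0.34.

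Most precursors lay close together in the groups. The median log2 fold change was -0.02, with quartiles of -0.23 and 0.18, and 236 of 288 (81.9%) lay within 0.5 of zero. The 95% interval of the difference stayed within a log2 of 1, that is a 2-fold change, for 185 precursors (64.2%). That share grew with the level: it was 29.5% of the 61 precursors under 10 CPM, 61.2% of the 85 from 10 to 100 CPM, 74.4% of the 86 from 100 to 1000 CPM and 91.1% of the 56 at 1000 CPM or more. For most precursors under 10 CPM the interval thus did not exclude a 2-fold change. In 14 precursors (4.86%) the groups did not overlap, 5 higher (1.74%) and 9 lower (3.12%) in Q111, at mean levels of 2.80 to 19653 CPM. On RPKM the groups did not overlap in 27 higher and 2 lower of the 288 precursors. On that scale the median log2 fold change of all precursors moved up to 0.34, so these counts are not read as an excess of higher precursors.

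**Figure D2:**
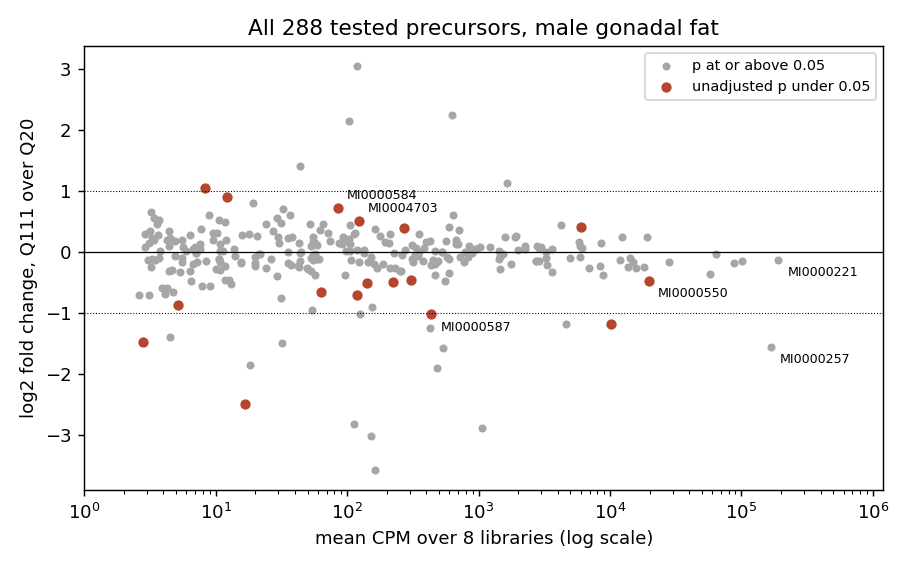
Log2 fold change, Q111 over Q20 males, against mean CPM over the 8 libraries (log scale) for the 288 tested precursors, 1 point each. Red points have an unadjusted p under 0.05, dotted lines mark a log2 change of 1 in either direction, and 0 points pass after adjustment.

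The lowest p in either direction belonged to MI0000587, a precursor of 86 nucleotides that was lower in Q111. It measured 276, 347, 270.1 and 263 CPM in Q111 replicates 1 to 4, against 567, 403, 737 and 637 CPM in Q20 replicates 1 to 4. Every Q111 library lay below every Q20 library, and Q20 replicate 2 came nearest to them. The means were 289 ± 38.9 CPM in Q111 and 586 ± 140.5 CPM in Q20 (SD, n = 4 each), a log2 fold change of -1.02 (SE 0.21, 95% interval -1.48 to -0.56) with an edgeR adjusted p of 0.158. Without Q20 replicate 2 it was the 1 precursor that passed, at a log2 of -1.10 (adjusted p = 0.0101), and it also passed in DESeq2 (log2 -0.98, adjusted p = 0.00482). The adjusted p ran from 0.00482 to 0.690 over 21 alternatives. On RPKM the groups overlapped, at 3209 to 4677 RPKM in Q111 and 2992 to 8529 RPKM in Q20, where replicate 2 was the lowest. The log2 was -0.66 on that scale (limma adjusted p = 0.479), where the median of all precursors moved to 0.34. Relative to the median, MI0000587 stood at -0.99997 on RPKM and at -0.997 on TMM scaling.

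Lane and genotype partly coincide. Both Q20 libraries of lane 3 held more MI0000587 than both of lane 1. Within lane 1, where 4 Q111 libraries face Q20 replicates 1 and 2, the log2 fold change was -0.72 (adjusted p = 0.392), and with the lane as a covariate it was -0.75 (adjusted p = 0.285). Lane 1 holds only 2 Q20 libraries, one of them replicate 2 with the lowest Q20 value, so lane and the choice of replicates cannot be told apart here. The estimated counts of MI0000587 were whole numbers in 0% of the 8 libraries. Reads divided between near-identical precursors can give such values, so which precursor the difference belongs to is uncertain.

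MI0000550, a precursor of 99 nucleotides and the most abundant of the 14 whose groups did not overlap, was also lower in Q111. It stood at 15184, 14566, 18489 and 17479 CPM in Q111 replicates 1 to 4, against 24931, 19984, 23053 and 23539 CPM in Q20 replicates 1 to 4. The highest Q111 library stayed below the lowest Q20 library, which was again replicate 2. The means of 16429.7 ± 1859 CPM in Q111 and 22877 ± 2086 CPM in Q20 (SD, n = 4 each) gave a log2 fold change of -0.48 (SE 0.14, 95% interval -0.78 to -0.18, adjusted p = 0.392). Within lane 1 the log2 was -0.42 (adjusted p = 0.641), and without Q20 replicate 2 it was -0.48 (adjusted p = 0.220). On RPKM the groups overlapped, at 170817 to 201594 RPKM in Q111 and 128833 to 258392 RPKM in Q20, and the log2 was -0.15. The median of all precursors moved to 0.34 on that scale. Relative to the median, MI0000550 stood at -0.48 on RPKM and at -0.45 on TMM scaling. Its estimated counts were whole in 62.5% of the 8 libraries, so reads shared with another precursor may be part of them.

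Among precursors of at least 10 CPM, MI0000584 had the lowest p of those higher in Q111. This precursor of 102 nucleotides measured 97.0, 136, 96.1 and 92.7 CPM in Q111 replicates 1 to 4, against 49.9, 70.4, 56.6 and 78.9 CPM in Q20 replicates 1 to 4. All Q111 libraries lay above all Q20 libraries, and Q111 replicate 2 was far above the other 3 of its group. The means were 106 ± 20.7 CPM in Q111 and 64.0 ± 13.1 CPM in Q20 (SD, n = 4 each), a log2 fold change of 0.72 (SE 0.22, 95% interval 0.24 to 1.21, adjusted p = 0.416). Within lane 1 it was 0.85 (adjusted p = 0.392), without Q20 replicate 2 it was 0.83 (adjusted p = 0.220), and with both libraries that stood apart left out it was 0.86 (adjusted p = 0.256). On RPKM it was 1.06 (limma adjusted p = 0.191), and the groups did not overlap, at 963 to 1553 RPKM in Q111 and 441 to 748 RPKM in Q20. The median of all precursors moved to 0.34 on that scale, so the larger value is not read as a stronger difference. Relative to the median, MI0000584 stood at 0.72 on RPKM and at 0.75 on TMM scaling.

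MI0004703, a precursor of 109 nucleotides, came next among the higher ones. It measured 177, 129, 150.2 and 117 CPM in Q111 replicates 1 to 4, against 87.9, 115, 113 and 87.9 CPM in Q20 replicates 1 to 4. The lowest Q111 library was only just above the highest Q20 library. The log2 fold change was 0.50 (SE 0.19, 95% interval 0.07 to 0.93, adjusted p = 0.708) between means of 143 ± 26.4 CPM in Q111 and 101.1 ± 15.3 CPM in Q20 (SD, n = 4 each), and it was 0.40 without Q111 replicate 1, the highest library. Within lane 1 it was 0.53 (adjusted p = 0.670). On RPKM it was 0.83 (limma adjusted p = 0.246), at 1221 to 1893 RPKM in Q111 and 676 to 1033 RPKM in Q20. Relative to the median of all precursors, MI0004703 stood at 0.49 on RPKM and at 0.53 on TMM scaling.

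**Figure D3:**
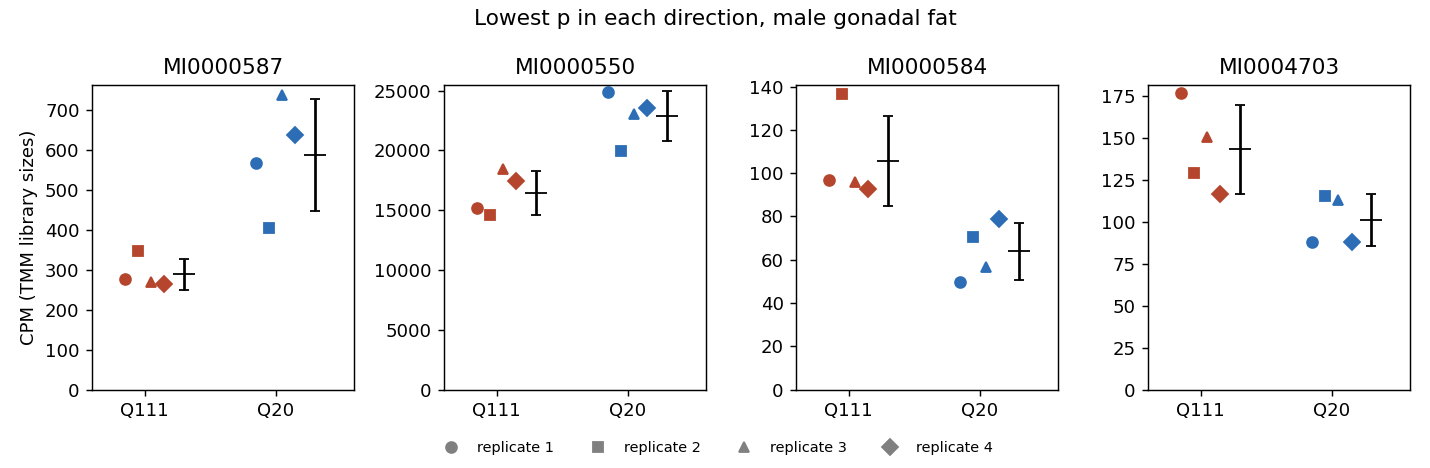
CPM in each library for the pair of precursors with the lowest p in each direction among those of at least 10 CPM, with Q111 males left of Q20 males. Symbols mark the replicate, and the bar beside each group is the mean with its SD (n = 4). Groups do not overlap in any of the 4 panels, and none of the 4 passes after adjustment.

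The 20 most abundant precursors, which together took 82.5% to 88.96% of a library's counts, lay mostly below zero on TMM scaling and above it on RPKM. Of these 20, 17 had a negative log2 fold change, with a median of -0.18, and 2 had an unadjusted p under 0.05. On RPKM 4 of the 20 were negative, with a median of 0.17, while 17 lay below the median of all precursors on either scale. For 18 of them the 95% interval stayed within a log2 of 1. Apart from MI0000257 they ranged from -1.17 to 0.25. The TMM scaling factor was 1.02 to 1.17 in the Q111 libraries, and 0.639 in Q20 replicate 2 against 0.969 to 1.026 in the other Q20 libraries.

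The large differences between the groups rested mostly on single libraries. A log2 fold change below -1 was found for 17 precursors, with a median of -1.55, and Q20 replicate 2 alone held over 50% of the summed Q20 level of 14 of them. Without MI0000257, the other 16 summed to between 10219 and 11156 CPM in the Q111 libraries, and to 63652 CPM in Q20 replicate 2 against 11387 to 15337 CPM in the other Q20 libraries. Of the 17, 15 were still tested without Q20 replicate 2. Their median log2 fold change was then 0.74, with 9 above zero and 1, MI0000587, below -1. That fit still held Q111 replicate 1, which was high in some of these precursors. MI0000224 stood at 681 CPM there, against 89.9 to 127 CPM in the other Q111 libraries. It was not high in all of them, as MI0000169 stood at 2972 CPM there, against 2457 to 3149 CPM. A log2 fold change above 1 was found for 6 precursors, and Q111 replicate 1 was the highest Q111 library in all 6. These summed to 11204 CPM in Q111 replicate 1, against 991 to 1799 CPM in the other Q111 libraries and 1146 to 1729 CPM in the Q20 libraries. Their median log2 fold change was 1.77 with Q111 replicate 1 and -0.17 without it.

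**Figure D4:**
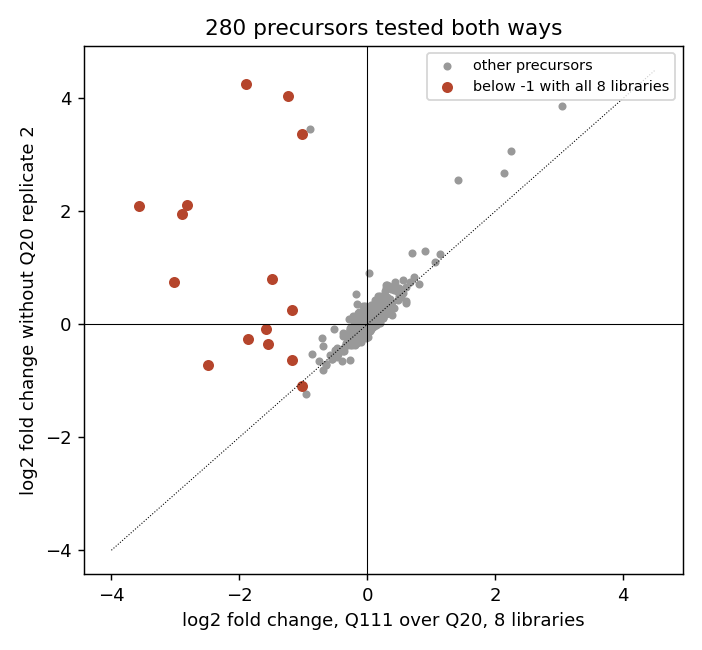
Log2 fold change, Q111 over Q20 males, with all 8 libraries (x axis) and without Q20 replicate 2 (y axis) for the 280 precursors tested both ways, with the dotted line marking equal values. Red points are the 15 that lay below -1 with all libraries, of which 9 lie above zero without that library. Q111 replicate 1 is kept on both axes.

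Leaving out Q20 replicate 2 moved the tails of the distribution from the low to the high side. Precursors beyond a log2 of 1 numbered 6 higher and 17 lower with all libraries, and 15 higher and 2 lower without it. On RPKM with all libraries they numbered 13 higher and 2 lower. Those at an unadjusted p under 0.05 numbered 32 of 280 (14 higher, 18 lower), with 13 of the 17 found with all libraries among them in the same direction. With Q111 replicate 1 left out as well, 39 of 274 had an unadjusted p under 0.05, 1 passed after adjustment, and 8 lay above and 2 below a log2 of 1.

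Precursors under the count filter were compared here only by whether they had counts, and by that measure none separated the groups. Of the 899 left out, 397 had no count in any of the 8 libraries, and the rest took at most 0.227% of a library's counts. Counts in Q111 libraries alone were seen for 74, at most 39 counts in sum, and in Q20 libraries alone for 105, at most 17 in sum. In 0 of them did all 4 libraries of one group have a count and all 4 of the other none. Length and order of registration gave similar medians: among the 226 tested precursors with a known length the median log2 fold change was -0.04 in the 118 of up to 84 nucleotides and -0.02 in the 108 longer ones, and it was 0.01 in the 50 with an accession number of at least 10000 and -0.03 in the other 238.

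Females of the same genotypes, none of whose libraries enter the male comparison, were set beside the males for the same precursors. They share with the males the difference in housing, and their Q111 libraries were likewise all in lane 1, with Q20 replicates 1 to 3 in lane 3 and replicate 4 in lane 1. Fitted alone, 3 Q111 and 4 Q20 females gave 0 edgeR calls among 306 precursors and 3 by DESeq2, and 46 precursors had p below 0.05 before adjustment. MI0000587 had a log2 fold change of -0.44 in females (adjusted p = 0.495), MI0000550 of -0.30 (adjusted p = 0.479), MI0000584 of 0.40 (adjusted p = 0.617) and MI0004703 of 0.34 (adjusted p = 0.549). All 4 had the direction seen in males, and none passed. MI0000221 stood at -0.06 (adjusted p = 0.896). MI0000257 had the opposite sign to males, at 0.68 (adjusted p = 0.512), and its male difference minus its female one was -2.13 (SE 0.86, unadjusted p = 0.0287, adjusted p = 0.830). Single libraries stood out in both sexes. Scaled over 37 libraries, Q111 female replicates 1 to 3 held 425743, 92497 and 175250 CPM of MI0000257, against 121939 to 187500 CPM in Q20 females, so the female groups overlapped. The male log2 fold change of MI0000257 was -0.35 without Q20 replicate 2. Of the 17 male precursors at an unadjusted p under 0.05, 16 were tested in females, and 12 of these (75%) had the same sign, 1 of them with p below 0.05, against 165 of 279 precursors in all (59.1%).

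Whether the difference between Q111 and Q20 was itself different in males was tested with an interaction term over the 15 libraries of both sexes. Of 324 precursors, 0 passed in edgeR (0%), with 18 at an unadjusted p under 0.05 (5.56%), 0 passed in limma on log2(RPKM + 1), and 2 passed in DESeq2. Of these 18, the male difference minus the female one was positive in 1 and negative in 17, and its median over all 324 was -0.14. Without male Q20 replicate 2, 8 of 323 had an unadjusted edgeR p under 0.05. For MI0000587 the male difference minus the female one was -0.55 (SE 0.37, adjusted p = 0.918). No precursor is called particular to males.

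The lowest interaction p belonged to MI0000652, a precursor of 72 nucleotides. In males it measured 7.79, 9.28, 6.45 and 8.56 CPM in Q111 replicates 1 to 4, against 14.3, 84.8, 6.58 and 10.1 CPM in Q20 replicates 1 to 4. In females it measured 79.6, 96.3 and 23.9 CPM in Q111 replicates 1 to 3, against 11.03, 11.9, 23.3 and 17.5 CPM in Q20 replicates 1 to 4. Male groups overlapped, with Q20 replicate 2 far above the rest. All Q111 females lay above all Q20 females, but the lowest only just, at 23.9 against 23.3 CPM. The male difference minus the female one was a log2 of -3.91 (SE 1.029, edgeR adjusted p = 0.619; DESeq2 adjusted p = 0.0142), and -2.33 without male Q20 replicate 2 (edgeR adjusted p = 0.386).

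MI0000159, of 68 nucleotides, had the next lowest interaction p. Male levels were 219 to 330.3 CPM with a median of 278 in Q111 and 302 to 2322 CPM with a median of 319.7 in Q20, where 2322 CPM was replicate 2. Female levels were 2819, 4378 and 1018 CPM in Q111 and 605 to 1193 CPM in Q20, so the female groups overlapped. The interaction was a log2 of -3.33 (SE 0.98, edgeR adjusted p = 0.619; DESeq2 adjusted p = 0.0271), and -1.86 without male Q20 replicate 2 (edgeR adjusted p = 0.462). On the other side, MI0000703 stood at 317 ± 24.04 CPM in Q111 males and 246 ± 33.6 CPM in Q20 males (SD, n = 4 each), against 229 ± 30.6 CPM in Q111 females (SD, n = 3) and 243 ± 19.3 CPM in Q20 females (SD, n = 4), an interaction of 0.45 (SE 0.21, adjusted p = 0.830). MI0000551 had an interaction of 1.49 (SE 0.75, adjusted p = 0.830) that rested on Q111 male replicate 1, at 6197 CPM against 891 to 1318 CPM in the other Q111 males and 1032 to 1121 CPM in Q20 males. Without that library the interaction was 0.33 (adjusted p = 0.798).

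Across the knock-in alleles, scaled here over 37 libraries, the level of MI0000587 in males averaged 609.9 ± 156 CPM in Q20, 482 ± 104 in Q80, 402 ± 126 in Q92, 309 ± 44.8 in Q111 and 576 ± 199 in Q140 (SD, n = 4 each, 3 in Q92). The Q111 mean was the lowest of these, but Q111 libraries, at 267 to 372 CPM, overlapped those of Q92 (283 to 534 CPM) and of Q140 (329 to 809 CPM). MI0000550 averaged 23756 ± 2503 CPM in Q20, 16497 ± 1823 in Q80, 18760.4 ± 3568 in Q92, 17537 ± 1957 in Q111 and 20049 ± 3990.3 in Q140. Here the Q20 mean stood highest, and the 4 longer alleles overlapped one another. Q20 libraries, at 20241 to 26149 CPM, overlapped those of Q92 (15298 to 22426 CPM) and of Q140 (15347 to 24795 CPM). They lay above those of Q80 and Q111, whose highest libraries stood at 17797 and 20158 CPM. Lane differed between these groups of males. Lane 3 held Q20 replicates 3 and 4, Q80 replicate 2, Q92 replicate 1 and Q140 replicates 1 to 3, and no Q111 library. Allele and lane thus partly coincide in these means and in those that follow, and the part of lane was not tested across alleles.

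MI0000584 averaged 66.2 ± 12.5 CPM in Q20, 99.8 ± 29.8 in Q80, 112 ± 35.3 in Q92, 113 ± 23.04 in Q111 and 93.8 ± 44.0 in Q140. MI0004703 averaged 105 ± 16.005 CPM in Q20, 140.4 ± 39.2 in Q80, 134 ± 38.9 in Q92, 153 ± 32.1 in Q111 and 121 ± 20.0 in Q140. The means of both were lowest in Q20 and highest in Q111, with the Q111 libraries inside or overlapping the ranges of Q80, Q92 and Q140. On this scaling the lowest Q111 library of MI0004703, at 119 CPM, fell just below the highest Q20 library, at 120.4 CPM. These alleles were each set beside the same Q20 libraries, so their values are not independent of one another.

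**Figure D5:**
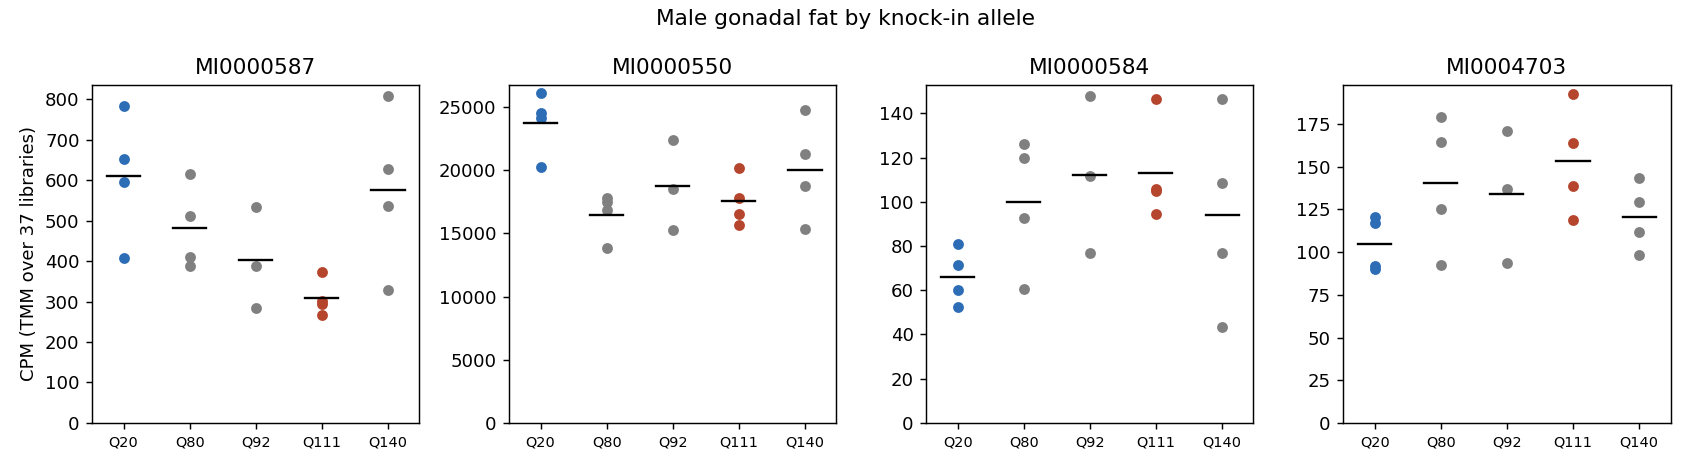
CPM of 4 precursors in male gonadal fat by knock-in allele, from Q20 to Q140, 1 point per library, with the mean as a line (n = 4, 3 in Q92) and scaling over 37 libraries. Q20 is blue, Q111 red and the other alleles grey, and the Q111 libraries overlap those of at least 1 other expanded allele in every panel. All Q111 libraries were in lane 1, while every other allele shown had at least 1 library in lane 3.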

How the data were processed

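Small RNA libraries were made from total RNA taken with a Qiagen miRNeasy kit and enriched for an RNA subfraction, per the labels' protocols. Per the submitters' processing notes, CASAVA 1.8.2 was used. The aligner, build, miRBase release and counter were not given in the sources used here. As values, the authors deposited estimated counts for 1187 precursors, of which 89.1% of values were whole within 0.0001, and each was rounded to a whole number for count tests, where whole counts had been foreseen. The authors also deposited RPKM values for the same precursors. Precursor lengths were recovered from the ratio of both tables for the 263 that reached 100 estimated counts, and all came out whole within 0.05.

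The main test was the robust quasi-likelihood F test of edgeR 4.0.16 with TMM scaling in R 4.3.3 over the 8 libraries, with no covariate, keeping precursors that reached 10 counts in 4 or more libraries, and an adjusted p threshold of 0.05 (Benjamini-Hochberg). The interaction with sex was fitted likewise over 15 libraries. Standard errors are the log2 fold change over the square root of F. Principal components used log2 CPM with a prior count of 2. DESeq2 1.42.0, which left 16 precursors without an adjusted p, and limma 3.58.1 on log2(RPKM + 1) were alternatives.

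Precursors named in the text are the 2 with the lowest p in each direction at a mean of at least 10 CPM, for each of the main and interaction fits, and the 2 most abundant. This shortens the rule fixed in the design, since the files do not pair accessions with names. For that reason 32 fixed lists with 255 members were matched to 0 precursors and not tested. Members and lists were chosen with earlier results of these data known. Whether a group's libraries are separate animals is not in the labels, so p-values may measure only the spread between libraries. For the most similar pair of libraries in a group the chi-square per degree of freedom was 64.2, and none was counted as a duplicate. Of the tested precursors, 6 in 3 sets had identical counts in all 8 libraries.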

Additional observations from a re-analysis of the deposited data

Results flagged for a closer look

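In 8 of 50 groups of 4 libraries, the highest or lowest one stood apart from its nearest neighbour by more than Dixon's 95% critical gap, which chance alone passes in about 1 of 20 independent groups. These 50 are not independent, since they share libraries and some precursors were named for differences that single libraries carry, so 8 of 50 is not read against that rate. Q20 replicate 2 was the library in 5 of these. Its score on principal component 1 was 17.6, its 5 most abundant precursors took 73.3% of its counts, and it held 662242 CPM of MI0000257. It also held 84.8 CPM of MI0000652 and 2322 CPM of MI0000159. Q111 replicate 1 was high in MI0000551, at 6197 CPM. Q111 replicate 2 was the highest of its group in MI0000587, at 347 CPM, and in MI0000584, at 136 CPM. The first of these brings Q111 nearer to Q20 and the second takes it farther away.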

How the results depend on the processing

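The count of 0 calls between Q111 and Q20 males stayed at 0 in 18 of 21 alternatives. It was 1 with DESeq2, between 0 and 1 when 1 library was left out, with 1 only without Q20 replicate 2, and 1 with both libraries that stood apart left out, a setting chosen after seeing the data. The call was MI0000587 each time. With a replicate block the count was 0 (16 at p below 0.05), and it was 0 for the interaction (9 at p below 0.05). The same-numbered libraries deviated together with correlations of -0.28 to 0.50, and 1 of 4 Q111 libraries correlated best with its own number. These values do not show that the numbers pair the samples, and with only 4 numbers they cannot exclude it. The interaction gave 2 calls with DESeq2 and 0 when any 1 of 15 libraries was left out. Fits within lane 1, with the lane as a covariate, over 19 male libraries and over 37 libraries gave 0 calls each. On RPKM the median of all precursors moved to 0.34 with a pseudocount of 1 or of 0.1. MI0000587 stood at -0.66 there, or -0.99997 relative to the median with a pseudocount of 1. MI0000221 turned to 0.19 on RPKM with either pseudocount, or -0.14 relative to the median, and to 0.016 within lane 1; the cause was not tested. The other named precursors kept their direction in every alternative that gave a value. With 4 libraries a group, the 95% interval reached a 2-fold change for most precursors under 10 CPM.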
